A study of Arabidopsis thaliana with 6 samples.

Results

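Signals of 10 probe sets for cold-response genes were compared between Arabidopsis thaliana plants exposed to aphid saliva and control plants, out of 22810 probe sets on the array. The genes are CBF1, CBF2 and CBF3, RD29A, KIN1 with KIN2, RAB18, COR47, LTI30, COR15A and COR15B. They were chosen by name for their place in the cold pathway, with earlier results of these data known. The platform annotation used here gives COR47 (AT1G20440, 259570_at), LTI30 (AT3G50970, 252102_at), COR15A (AT2G42540, 263497_at) and COR15B (AT2G42530, 263495_at) 1 probe set each. It gives 246481_s_at to both KIN1 (AT5G15960) and KIN2 (AT5G15970), so these genes share 1 value. The other 5 probe sets are not listed in that annotation: 254066_at for CBF1 (AT4G25490), 254074_at for CBF2 (AT4G25470), 254075_at for CBF3 (AT4G25480), 248337_at for RD29A (AT5G52310) and 247095_at for RAB18 (AT5G66400). Their names here come from the list by which the genes were chosen and were not checked against a probe annotation.

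CBF proteins are transcription factors of the AP2/ERF family that bind the C-repeat/dehydration-responsive element in promoters of cold-regulated genes. Their own transcripts rise quickly and briefly on chilling, are also known to respond to touch and follow the circadian clock, and their targets then rise more slowly and raise freezing tolerance. The other genes of the set, called targets here for short, encode hydrophilic protective proteins. Whether CBF proteins act on each of them was not tested. COR47, LTI30 and RAB18 are dehydrins, whereas COR15A, COR15B, RD29A, KIN1 and KIN2 belong to other groups of protective proteins, so the set is a cold-response set rather than a dehydrin set. Several of these genes, RD29A and RAB18 above all, also respond to abscisic acid and water deficit.

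Plants of one group had received saliva of the phloem-feeding aphid Myzus persicae (3 arrays), and those of the other were labelled as controls (3 arrays). All were wild-type Col-0 plants, 3 weeks old and not yet flowering, raised on soil at 23 °C and 50% relative humidity in a 16 h photoperiod from seed held for 24 h at 4 °C. Tissue, mode and time of treatment and the handling of the controls are not stated in the labels used here. Whether replicates were separate plants is not stated either, so the p-values rest on array-to-array spread that could be purely technical.

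The 6 Affymetrix ATH1 arrays had the same trimmed mean signal of 100.01 and correlated with each other at 0.975 to 0.988. Saliva replicate 3 had the lowest mean correlation with its own group, at 0.980, and results are also given without it. Of the green-tissue markers, PRK and LHCB4.1 were named and had signals of at least 3257 on every array, while the 3 named root markers stayed at 11.2 or below. In bulk RNA, fewer cells of a type and less RNA per cell cannot be told apart.

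In RefSeq's gene table for TAIR10.1, where CBF3 is listed as DREB1A and RD29A as LTI78, most of these genes lie side by side with a relative. CBF2, CBF3 and CBF1 follow each other with 0 protein-coding genes between neighbours. COR15B is next to COR15A and KIN1 is next to KIN2. COR47 is next to ERD10 and LTI30 next to XERO1, both of which are other dehydrin genes, and RD29A is next to RD29B, listed as LTI65. Close relatives such as the CBF genes can share probe sequence, and how far the probe sets tell them apart was not tested.

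The comparison asked whether the CBF genes and the genes called targets had different transcript levels in saliva-treated and control plants. 3 target genes, COR47, RD29A and LTI30, had higher signals on every saliva array than on any control array. Over all probe sets tested, 7.8% did so, and 7.72% were lower on every saliva array than on any control array. The 3 CBF genes and the other targets overlapped between the groups. The differences of COR47, RD29A and LTI30 were 0.47 ± 0.13, 0.42 ± 0.13 and 0.28 ± 0.11 on the log2(signal + 16) scale (limma estimate ± SE, 3 arrays a group). None of the 10 passed the threshold of an adjusted p of 0.05 over all probe sets tested, so no member is called changed.

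Among the CBF genes, CBF1 had signals of 41.2, 80.3 and 32.9 in saliva replicates 1, 2 and 3, against 38.6, 71.1 and 62.4 in control replicates 1, 2 and 3. The highest and the lowest of these values were both saliva arrays, so the control values lay wholly inside the saliva range. The difference was -0.16 ± 0.23 (95% interval -0.65 to 0.34; limma adjusted p = 0.878), and it was 0.044 without saliva replicate 3.

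CBF2 had signals of 34.2, 61.3 and 12.5 in saliva replicates 1, 2 and 3, against 18.5, 56.1 and 31.3 in the controls. Here too the extremes were saliva replicates 2 and 3, with a 4.91-fold range over the 6 arrays, the widest of the 10 probe sets. The difference was -0.028 ± 0.31 (95% interval -0.71 to 0.65; limma adjusted p = 0.988). It was 0.35 without saliva replicate 3 and 0.25 without control replicate 2, so its direction rests on single arrays.

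CBF3 had signals of 29.5, 29.1 and 43.3 in saliva replicates 1, 2 and 3, against 16.6, 40.4 and 29.8 in the controls. It was highest on saliva replicate 3, the array on which CBF1 and CBF2 were lowest. The difference was 0.18 ± 0.19 (95% interval -0.24 to 0.59; limma adjusted p = 0.814), and it was 0.047 without saliva replicate 3. The 3 CBF probe sets were dim, with the array medians between 32.4 and 33.4, and no detection calls were used, so whether each signal exceeded background was not tested. Their group means on the log2 scale, 5.45 to 6.17, all lay above the lowest mean kept, 5.04.

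Of the dehydrin genes, COR47 had signals of 1608, 2373 and 1874 in saliva replicates 1, 2 and 3, against 1330, 1459 and 1384 in the controls. The saliva arrays all lay above the control arrays, and they were spread more widely, with a mean of 1952 ± 389 in saliva plants and 1391 ± 64.9 in control plants (SD, n = 3 each). The difference of 0.47 is 1.38-fold on the offset scale (95% interval 0.19 to 0.74; limma adjusted p = 0.184, unadjusted p = 0.00295). It was 0.49 without saliva replicate 3, and 0.32 without saliva replicate 2, the highest array.

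LTI30 had signals of 134, 124 and 117 in saliva replicates 1, 2 and 3, against 90.3, 101 and 109 in the controls. The groups were narrow and did not overlap, with means of 125 ± 8.81 in saliva plants and 100.3 ± 9.57 in control plants (SD, n = 3 each). The gap between the lowest saliva array and the highest control array was smaller than the range within either group. The difference of 0.28 is 1.21-fold on the offset scale (95% interval 0.030 to 0.53; limma adjusted p = 0.422, unadjusted p = 0.0308), and it was 0.32 without saliva replicate 3.

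RAB18, a dehydrin gene known for its response to abscisic acid, had signals of 149, 167 and 227 in saliva replicates 1, 2 and 3, against 141, 159 and 167 in the controls. Saliva replicate 3 stood above all other arrays, and the other 2 saliva arrays lay within the range of the controls. The difference was 0.18 ± 0.14 (95% interval -0.13 to 0.49; limma adjusted p = 0.715). Without saliva replicate 3 it was 0.018.

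RD29A, a gene induced by cold, drought and salt that is widely used as a reporter of CBF activity, had signals of 1132, 1328 and 1121 in saliva replicates 1, 2 and 3. Its signals in control replicates 1, 2 and 3 were 782, 1083 and 818. All saliva arrays were above all control arrays, though control replicate 2 came close to the lowest of them. The difference of 0.42 is 1.34-fold on the offset scale (95% interval 0.14 to 0.70; limma adjusted p = 0.234, unadjusted p = 0.00608), and it was 0.46 without saliva replicate 3 and 0.33 to 0.56 when any 1 array was dropped.

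The probe set shared by KIN1 and KIN2, which encode small cold-induced hydrophilic proteins, had signals of 6036, 7569 and 5955 in saliva replicates 1, 2 and 3, against 6328, 6950 and 5846 in the controls. The groups overlapped and their means lay close together, at 6520 ± 909 in saliva plants and 6375 ± 554 in control plants (SD, n = 3 each). The difference was 0.027 ± 0.11, with a 95% interval of -0.21 to 0.26 (limma adjusted p = 0.967), and it was 0.088 without saliva replicate 3.

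COR15A and COR15B encode related proteins of the chloroplast stroma that protect membranes during freezing. COR15A had signals of 1177, 1329 and 1176 in saliva replicates 1, 2 and 3, against 1160, 1434 and 898 in the controls. COR15B had signals of 882, 751 and 700 in saliva replicates 1, 2 and 3, against 760, 1106 and 726 in the controls. Control replicate 2 was the highest array for both genes, and in both the controls were spread more widely than the saliva arrays. The differences were 0.098 ± 0.14 for COR15A (95% interval -0.21 to 0.41; limma adjusted p = 0.876) and -0.13 ± 0.15 for COR15B (95% interval -0.45 to 0.19; limma adjusted p = 0.828). The groups overlapped for both genes. Without saliva replicate 3 the differences were 0.13 for COR15A and -0.058 for COR15B.

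**Figure D1:**
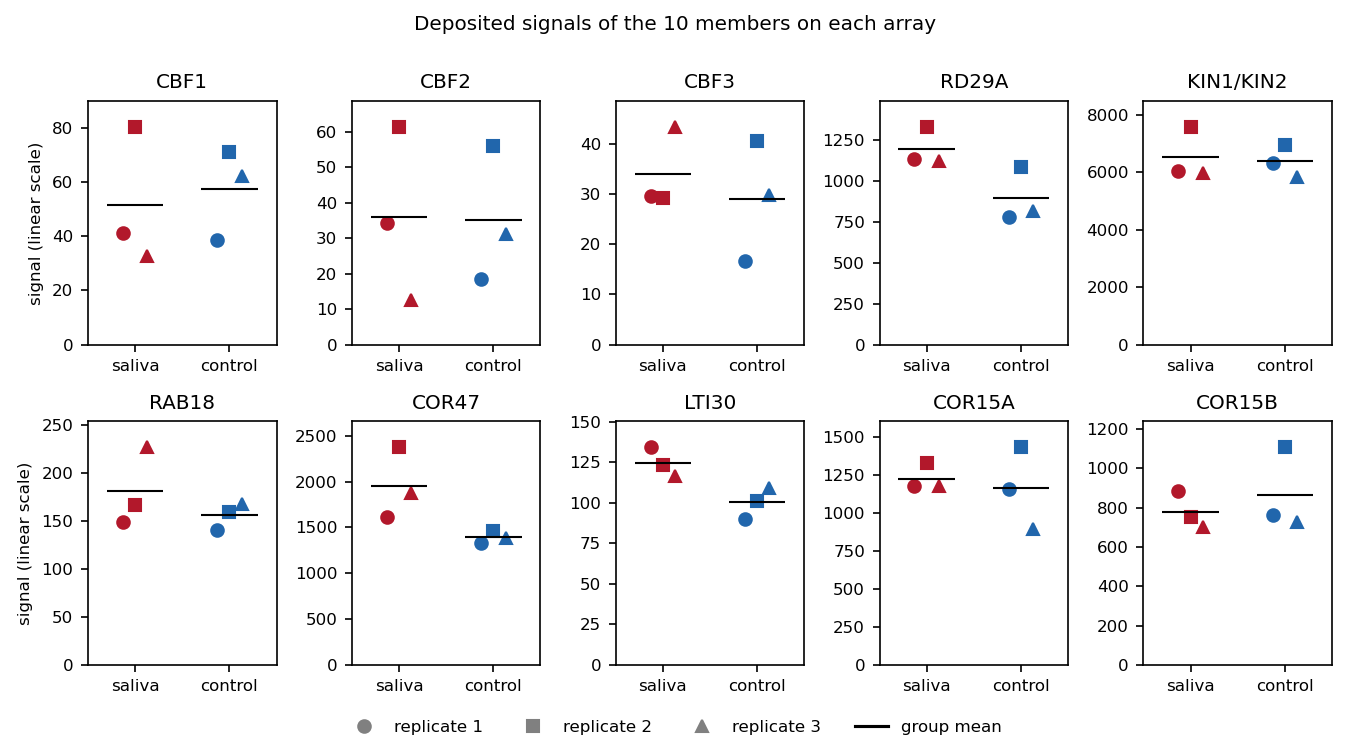
Deposited signal of each of the 10 probe sets (vertical axes, linear scale from 0) in saliva and control plants, with 1 point per array, marker shapes for replicates 1 to 3 and a line at the group mean. The saliva points of COR47, RD29A and LTI30 all lie above their control points, while the other 7 panels overlap.

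Over the 10 probe sets, all of which passed the filter on low values, 7 were higher and 3 lower with saliva, beside 51.5% higher among all probe sets tested. Their median difference was 0.14 on the log2(signal + 16) scale, beside 0.0057 over all 13647 probe sets tested. In limma 0 of 10 had an adjusted p under 0.05, beside 0.0586% of all probe sets tested. At an unadjusted p under 0.05 there were 3 higher members (COR47, RD29A and LTI30) and 0 lower, beside 5.39% higher and 4.82% lower of all probe sets. The same 3 were those with all saliva values above all control values, beside 7.8% of all probe sets, and 0 members had all values below, beside 7.72%.

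**Figure D2:**
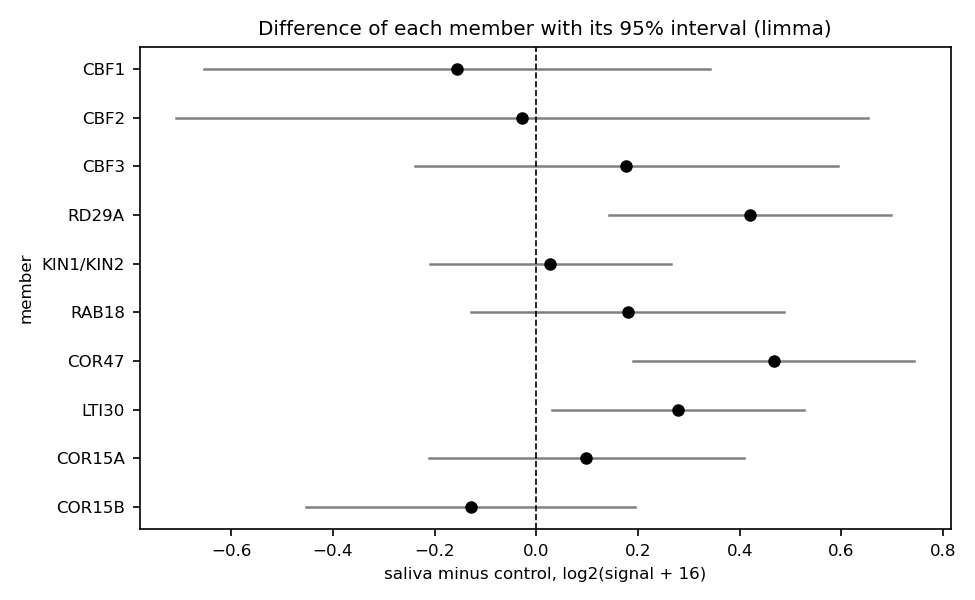
Saliva minus control on the log2(signal + 16) scale (horizontal axis) for each of the 10 members, with the 95% interval of the limma fit as a bar (3 arrays a group). The intervals of RD29A, COR47 and LTI30 lie above 0 before adjustment over all probe sets, and the other 7 span 0, with the widest interval for CBF2 at -0.71 to 0.65.

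Whether related members differed from each other in their response was tested within arrays. For 7 pairs, the 3 pairs of CBF genes, COR15A with COR15B and the 3 pairs of dehydrin genes, the log2 difference between the 2 probe sets was taken on each array and compared between the groups. A two-sided exact permutation test over the arrays, whose smallest possible p is 0.1, was adjusted over the 7 pairs. COR15A minus COR15B was 0.65 ± 0.21 in saliva plants and 0.42 ± 0.16 in control plants (SD, n = 3 each), 0.23 apart (exact p = 0.2, adjusted p = 0.9). COR47 minus RAB18 was 3.32 ± 0.37 in saliva plants and 3.03 ± 0.091 in control plants (SD, n = 3 each; exact p = 0.3, adjusted p = 0.9). Only the change of such a difference can be read, since 2 probe sets of unlike sensitivity have no common scale. The 3 CBF pairs gave exact p of 0.8, 0.6 and 0.9, and COR47 with LTI30 and LTI30 with RAB18 gave exact p of 0.5 and 0.7. The adjusted p was 0.9 for each pair, in a design that cannot pass 0.05.

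The members also differed in how much they varied among arrays of one group. The within-group SD of CBF2 was 0.64 on the log2 scale, beside a median of 0.17 over the 4102 probe sets whose mean lay within 0.5 of its own, and 99.7% of those varied less. CBF1 had a within-group SD of 0.44, above 98.9% of probe sets of similar level, and CBF3 one of 0.32, above 94.0%. COR15A and COR15B each varied more than 92.2% of such probe sets, and KIN1/KIN2, COR47, RAB18 and RD29A more than 82.2% to 89.5%. LTI30 was the exception among the 10, with an SD of 0.11, above 25.4% of its neighbours in level. For each of the 3 CBF genes the spread within groups was larger than the difference between saliva and control.

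**Figure D3:**
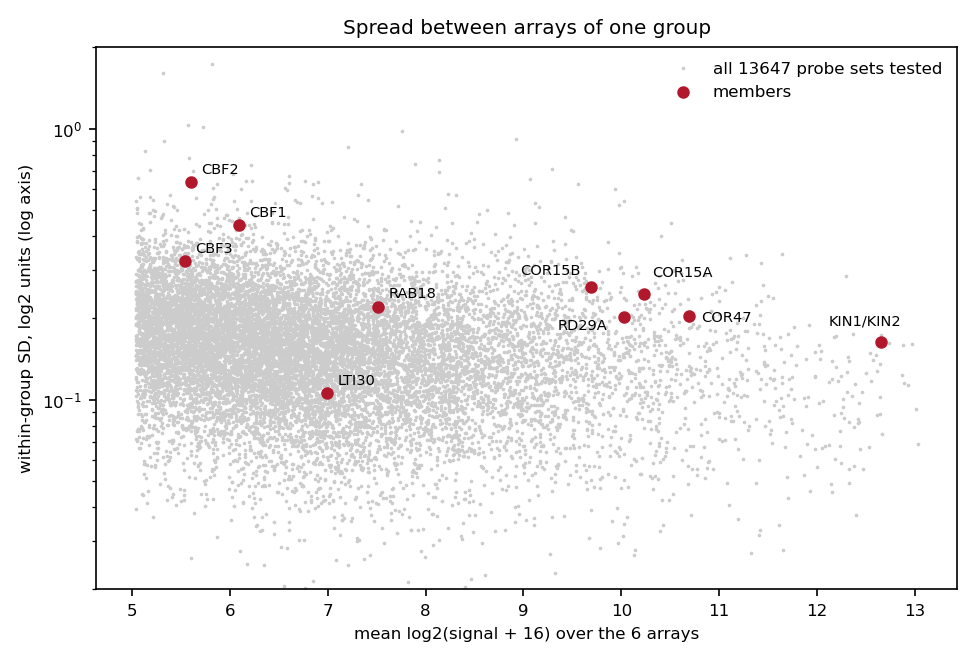
Within-group SD of log2(signal + 16) (vertical axis, log scale) against the mean over 6 arrays (horizontal axis) for the 13647 probe sets tested (grey) and the 10 members (red). CBF2 and CBF1, at 0.64 and 0.44, lie near the upper edge at their level, and LTI30, at 0.11, lies in the lower part of the cloud.

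CBF1 and CBF2 ranked the arrays alike. Both were highest on saliva replicate 2 and second highest on control replicate 2, and both were lowest on saliva replicate 3 and second lowest on control replicate 1. Their correlation over the 6 arrays was 0.91, with scaling and group shared by all points, whereas CBF3 correlated with CBF1 at 0.12 and with CBF2 at 0.13. CBF3 came closest to RAB18, at 0.73 over the 6 arrays, since both peaked on saliva replicate 3.

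In 6 of the 10 members, CBF1, CBF2, RD29A, KIN1/KIN2, COR47 and COR15A, replicate 2 was the highest array of the saliva group and also of the control group. Over all probe sets tested this was so for 10.8%, and the pattern was looked for after the values had been seen. The arrays with the same number were not shown to be paired. On saliva replicate 2 the deviation from the group mean was 0.58 for CBF1, 0.69 for CBF2, 0.30 for COR47 and 0.22 for KIN1/KIN2. On control replicate 2 it was 0.28, 0.56, 0.069 and 0.13 for the same genes.

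**Figure D4:**
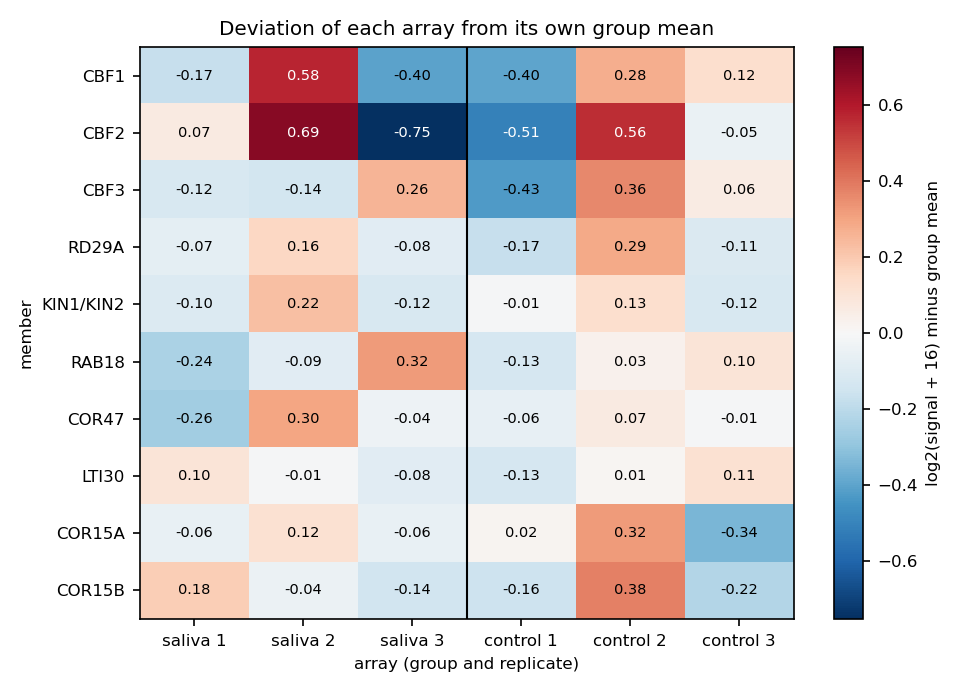
Deviation of each array from its own group mean in log2(signal + 16) (colour and printed value) for the 10 members (rows) on the saliva and control arrays (columns). Saliva replicate 2 and control replicate 2 are above their group means for CBF1, CBF2, RD29A, KIN1/KIN2, COR47 and COR15A, and saliva replicate 3 has the lowest value shown, -0.75 for CBF2.

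The array patterns of the targets were also set beside those of the CBF genes. Over the 6 arrays KIN1/KIN2 correlated with CBF1 at 0.72 and with CBF2 at 0.76, and RAB18 at -0.24 and -0.39. Saliva replicate 3 had the lowest CBF1 and CBF2 signals of the 6 arrays and the highest CBF3 signal. Its RD29A and COR47 signals were above those of any control array. Over the 6 arrays RD29A correlated with CBF1, CBF2 and CBF3 at 0.29, 0.48 and 0.56, and COR47 at 0.26, 0.30 and 0.33. COR47 and RD29A ranked the arrays in nearly the same order, with saliva replicate 2 highest and control replicate 1 lowest in both, and correlated at 0.86 over the 6 arrays. With group means removed, that correlation was 0.61. On the same footing the 7 target probe sets correlated with CBF1 from -0.17 for RAB18 to 0.77 for COR47. With CBF2 they ran from -0.43 for RAB18 to 0.82 for RD29A, and with CBF3 from -0.034 for KIN1/KIN2 to 0.69 for RAB18. These values rest on 6 arrays that share a scaling and are descriptions only.

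The rest of the pathway was only thinly covered by named probe sets. Of 115 genes in 5 lists, for CBF regulators, other early cold factors, other dehydrins, other cold and drought targets, and abscisic acid synthesis and signalling, 7 had a probe set with 1 gene in the annotation used here. Of these 7, 3 were bright enough to be tested. In limma 0 of the 3 had an adjusted p under 0.05, and 0 had an unadjusted p under 0.05.

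EIN3, an ethylene-signalling factor that represses CBF genes in Arabidopsis, had signals of 490, 458 and 442 in saliva replicates 1, 2 and 3, against 389, 424 and 416 in the controls. All saliva values were above all control values, beside 7.8% of all probe sets tested. The difference was 0.17 ± 0.10 (limma adjusted p = 0.605, unadjusted p = 0.112). STZ, a zinc finger repressor gene induced early in cold and many other stresses, had signals of 262, 379 and 211 in saliva replicates 1, 2 and 3, against 194, 530 and 347 in the controls. It overlapped between the groups, with a difference of -0.25 ± 0.28 (limma adjusted p = 0.822). Over the 6 arrays STZ correlated with CBF1, CBF2 and CBF3 at 0.89, 0.88 and 0.43. These correlations were chosen once the values were known and are descriptions only.

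HIRD11 (AT1G54410), a small dehydrin gene, had signals of 3631, 3980 and 3508 in saliva replicates 1, 2 and 3, against 4200, 4035 and 3340 in the controls. The groups overlapped, with a difference of -0.053 ± 0.11 (limma adjusted p = 0.917), and whether it differed from the other dehydrin genes in its response was not tested. The dehydrin genes AT2G21490, AT4G38410 and AT4G39130 and the late embryogenesis abundant gene LEA4-5 were under the filter, with signals of 13.9 or below on every array. Among them AT4G38410 had signals of 3.58, 6.21 and 3.84 in saliva replicates 1, 2 and 3, against 8.0, 8.84 and 13.3 in the controls. All its saliva values were below all its control values, beside 7.72% of the probe sets that passed the filter. Without the filter its difference was -0.34 ± 0.12 (limma adjusted p = 0.560, unadjusted p = 0.0220). Whether these low signals exceeded background was not tested. No probe set was named for the seed, flower or phloem markers or for the abscisic acid list, so these were not analysed here by name.

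Of 6 green-tissue markers 2 had a named probe set, PRK and the light-harvesting gene LHCB4.1. PRK, an enzyme of the Calvin cycle, had signals of 3257, 3290 and 3819 in saliva replicates 1, 2 and 3, against 4235, 4058 and 3870 in the controls. LHCB4.1 had signals of 5403, 6272 and 6161 in saliva replicates 1, 2 and 3, against 6769, 7113 and 6738 in the controls. Both had all saliva values below all control values, beside 7.72% of all probe sets tested, and both had an unadjusted p under 0.05, beside 4.82% lower. Their summed signal ran from 8660 to 9980 in saliva plants and from 10610 to 11170 in control plants. PRK differed by -0.23 ± 0.095 (limma adjusted p = 0.418) and LHCB4.1 by -0.21 ± 0.090 (limma adjusted p = 0.445), so neither passed. Their part in the values of the cold-response genes was not tested. Of 4 guard cell markers 1 had a named probe set, FMA. Its signal ran from 41.7 to 50.4 in saliva plants and from 42.8 to 51.0 in control plants.

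The genes most like the CBF mean over the 6 arrays, among 7363 other tested probe sets with 1 gene, were AT5G60570 (r = 0.98), AT5G43930 (r = 0.97) and AT1G75560 (r = 0.97). That mean was taken over the 3 CBF genes on the log2 scale without scaling each gene. Since CBF3 correlated with CBF1 and CBF2 at only 0.12 and 0.13, likeness to the mean need not hold for each CBF gene. With 6 arrays, 62 of the 7363 exceeded 0.9. Those most like the mean of the other 7 members were AT4G14990, AT3G53960 and AT5G20400, each at 0.99, and 60 exceeded 0.9. None of these 6 genes had an adjusted p under 0.05 between the groups in limma, and the value nearest to it was 0.462 for AT3G53960 at a difference of 0.30 ± 0.13.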

How the data were processed

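Values were probe set intensities on a linear scale, which the authors deposited as 1 signal for each probe set on each array. Per the submitters' processing notes the tools were MAS5, GCOS and limma, with no role or version stated for any. The deposited scaling was kept, since the trimmed mean was equal on all arrays. The table had 0 columns beyond those of the 6 arrays.

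Without the 64 Affymetrix controls, signals were put on the log2(signal + 16) scale. The 40% of probe sets with the lowest mean over all arrays were left out, which left 13647. This scale understates the differences of low signals. The groups were compared with limma 3.58.1 under R 4.3.3 (lmFit, then eBayes with a trend on the mean), two-sided, with Benjamini-Hochberg adjustment over all probe sets tested. The ± values are standard errors unless marked SD. The fit was tested on simulated data. There, 46% of 250 planted changes of 0.5 on the log2 scale passed the threshold, and 100% of 250 planted changes of 1 did. The largest difference among the members was 0.47, so a change of the size seen in the members could be missed. No test compared the level of 1 probe set with that of another.

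The members, the gene lists and the tests were chosen with earlier results of these data known. Named genes are all members, up to 4 tested genes per list by unadjusted p, and the 3 genes most correlated with each of 2 member profiles. The pairs within arrays, the count on replicate 2, the list genes under the filter and the correlations of members and STZ were chosen once the values were known. Names come from the platform annotation (13513 probe sets with 1 gene, 503 with several) through RefSeq identifiers. No sequences or coordinates are printed. Alternatives were the offset, the filter, the normalization, the trend, array weights, a replicate block and leaving out each array. The number of arrays limits the precision.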

Additional observations from a re-analysis of the deposited data

How the results depend on the processing

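Under all 15 alternatives 0 of the 10 members reached an adjusted p below 0.05 by limma, and COR47 and RD29A kept an unadjusted p under 0.05 under each. LTI30 did not without control replicates 1 and 2 or saliva replicates 1 and 2, and CBF1 did without saliva replicate 2 alone, at -0.44 (unadjusted p = 0.0396, its adjusted p over the settings lay between 0.580 and 0.993). Over the alternatives the adjusted p ran from 0.0869 to 0.470 for COR47 and from 0.113 to 0.545 for RD29A. The number of members with an unadjusted p under 0.05 ran from 2 to 3 without single arrays.

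The sign turned for CBF1 without saliva replicate 3 (0.044), for CBF2 with array weights (0.042), without control replicate 2 (0.25) and without saliva replicate 3 (0.35), and for CBF3 without control replicate 1 (-0.036). It also turned for KIN1/KIN2 without saliva replicate 2 (-0.085) and control replicate 3 (-0.033), for COR15A without control replicate 3 (-0.074) and for COR15B without control replicate 2 (0.060). Without single arrays CBF1 ran from -0.44 to 0.044, CBF2 from -0.37 to 0.35, CBF3 from -0.036 to 0.36, KIN1/KIN2 from -0.085 to 0.091, COR15A from -0.074 to 0.26 and COR15B from -0.24 to 0.060. RD29A, RAB18, COR47 and LTI30 kept their sign throughout. Dropping the dimmest 60% also removed the 3 CBF probe sets, so those have no value there.

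Over all probe sets the count past the threshold was 8, and it became 2 at offset 1, 2 at offset 64, 1 with every probe set kept, 2 with the lowest 60% left out, 1 with quantile normalization (1 higher and 0 lower, against 6 and 2), 1 without the trend and 53 with array weights. Dropping any 1 array gave 1 to 14. The cause of these shifts was not tested.

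The replicate numbers were not shown to pair the arrays. Deviations from the group means correlated at -0.059, 0.12 and 0.15 for numbers 1, 2 and 3. Saliva replicate 1 correlated better with control replicate 2, at 0.089. Saliva replicates 2 and 3 each correlated best with the control of their own number. The other values were 0.066 and -0.17 for saliva replicate 2, and -0.0026 and -0.17 for saliva replicate 3. With the replicate number as a block 29 probe sets and 0 members passed.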
